A study of Mus musculus with 4 samples.

Results

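Bone marrow progenitors with a high surface level of CD117, the receptor tyrosine kinase Kit, were compared between a control library and a library labelled Mll4-deleted. The cells were chosen on counts of unique molecular identifiers (UMIs, each standing for 1 captured transcript) and of CD117 antibody tags. Barcodes passed with 500 or more genes, 1000 or more gene UMIs, no more than 10% mitochondrial UMIs, and CD117 antibody counts at or above 1 fixed threshold, the same in both libraries. This rule gave 7221 cells of the 34398 barcodes in the 4 libraries of the series. The control contributed 4638 of its 7768 filtered cells (59.7%, exact 95% binomial interval 58.6 to 60.8) and the library labelled Mll4-deleted 2583 of 5649 (45.7%, 44.4 to 47.0). Because CD117 chose the cells, its own level is given only as a description.

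All groups were CD45.2+ Kit+ mouse bone marrow collected 10 weeks after transplantation, stained with barcoded antibodies and run on the 10x Genomics 3′ version 3.1 chemistry. The control is named as wild type in its library name, and the other library used here is labelled as deleted for Mll4, the protein encoded by Kmt2d. Libraries labelled Mll3-deleted and Mll3/4-deleted belong to the same series. They are quoted only as levels side by side, since they share the control. The labels do not give the deleted exons, the recombinase or its promoter, the host animals, the number of donors or what the 2 hashtag antibodies mark. Each group had 1 library, so no test was made. Every interval covers counting error only, and a difference between the groups cannot be told apart from one between these libraries.

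MLL3 and MLL4 are large histone methyltransferases that work within COMPASS-family complexes and place methyl marks on histone H3, mainly at enhancers. Kit is the receptor for stem cell factor; it is present on blood stem cells and early progenitors, is lost in most maturing lineages and is kept by mast cells. In mouse marrow, Kit-positive cells are commonly divided by Sca-1, which marks stem and multipotent cells, by CD16/32, which marks granulocyte and monocyte progenitors, and by CD34, with the cells low for all of these enriched in megakaryocyte and erythroid progenitors.

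The Kit transcript in the chosen cells was 126 CPM in control and 236 CPM in the library labelled Mll4-deleted. CPM is the gene's UMIs summed over the cells, per 1e+06 of all gene UMIs. In the 10 antibody counts just inside the CD117 threshold, 165 control cells held 92.7 CPM of Kit and 139 cells of the library labelled Mll4-deleted held 93.2 CPM. In the 10 counts just outside it, the levels were 73.8 CPM in 188 cells and 89.1 CPM in 163 cells. CD117 antibody had a median of 247 counts per cell in control and 262 in the library labelled Mll4-deleted.

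Several features set the library labelled Mll4-deleted apart before any comparison. Kmt2d, the gene named by the label, was 24.2 CPM in control and 23.0 CPM in the library labelled Mll4-deleted, a log2 ratio of -0.07 (95% interval -0.21 to 0.06). Counts from the 3′ end check a deletion only where it removes that end or the transcript, and the labels do not give the deleted exons, so Kmt2d neither supports nor contradicts the label. Xist, the RNA of the inactive X chromosome, was 1112 CPM in control and 0.484 CPM in the library labelled Mll4-deleted. The male-specific genes Ddx3y, Uty, Kdm5d and Eif2s3y summed to 0.0161 and 146 CPM. The sex of the cells therefore differed between the libraries and cannot be told apart from the label. Only autosomal genes are compared below.

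Depth differed as well. The control cells held 124192981 gene UMIs with a median of 20135.5 per cell, and those of the library labelled Mll4-deleted 20648865 with a median of 6761, a 6.01-fold and a 2.98-fold difference. The share of cells high for Gr1 or CD11b, antibodies for neutrophils and other mature myeloid cells, was 12.7% (11.7 to 13.6) in control and 32.8% (31.0 to 34.6) in the library labelled Mll4-deleted. Cells positive for both hashtags, which include doublets, made up 5.41% and 11.1%. The 2 libraries shared 5 cell barcodes. To show how even the differences were within a library, levels are also given for the cells carrying only the first or only the second hashtag (2302 and 2084 cells in control, 1399 and 896 in the library labelled Mll4-deleted). These subsets are not replicates. The share of all genes whose subsets do not overlap between the libraries is not given here. A lack of overlap in a named gene is therefore only a description.

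The CD117-high cells were spread over the surface gates in different proportions in the 2 libraries. Gates were set by antibody thresholds taken from the control cells. Cells with high CD16/32 and low Sca-1 made up 25.9% (24.7 to 27.2) of the control and 41.5% (39.6 to 43.4) of the library labelled Mll4-deleted. Cells low for Sca-1, CD16/32 and CD34, called triple low here, made up 40.1% (38.7 to 41.5) and 23.7% (22.0 to 25.3). The CD34-high gate, low for the other antibodies, held 14.0% (13.05 to 15.1) and 19.9% (18.4 to 21.5). In these 3 gates both hashtag subsets of the library labelled Mll4-deleted lay on the same side of both control subsets. In the triple-low gate they held 30.5 and 19.8% against 39.2 and 44.1% in the control subsets.

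The Sca-1-high gate did not separate the libraries in this way. It held 925 control cells, 19.9% (18.8 to 21.1), and 387 cells of the library labelled Mll4-deleted, 14.98% (13.6 to 16.4). By hashtag the shares were 21.3 and 17.8% in control and 10.9 and 19.5% in the library labelled Mll4-deleted, so the subsets overlapped. The gates also differed in mature myeloid cells. In the CD16/32-high gate 33.8% of control cells and 63.3% of the cells of the library labelled Mll4-deleted were high for Gr1 or CD11b. Leaving out Gr1- or CD11b-high cells was an alternative added once the data had been seen. The CD16/32-high share without them was 19.6% in control and 22.6% in the library labelled Mll4-deleted, the CD34-high share was 16.0 and 28.4%, and the triple-low share was 45.7 and 33.4%.

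**Figure D1:**
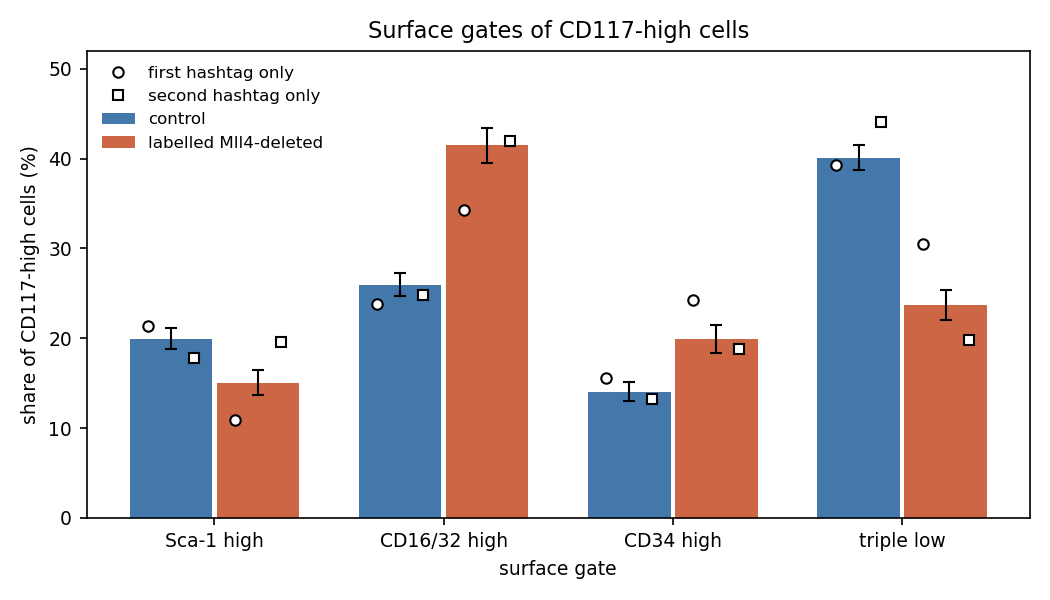
Share of CD117-high cells (%) in 4 surface gates; bars are the 2 libraries, error bars exact 95% binomial intervals (counting error only), and open symbols the cells with only the first or only the second hashtag. The CD16/32-high bar is at 25.9% in control and 41.5% in the library labelled Mll4-deleted, and the Sca-1-high symbols of the 2 libraries overlap.

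Single antibodies differed as well. Gr1 had a median of 27 counts per cell in control and 53 in the library labelled Mll4-deleted, and 10.1 and 32.2% of cells were above its threshold. Its background was also higher, with medians of 26 and 44 counts in the cells below the threshold. Fitted to the library labelled Mll4-deleted, the thresholds were 100 counts for Gr1 and 54.9 for CD11b. The control thresholds of 76.7 and 37.7 set the shares given here. CD11b was above threshold in 8.60 and 21.6% of cells, and CD16/32, the Fc gamma receptors, in 30.1 and 46.8%. CD150, a SLAM-family receptor of stem cells and megakaryocyte-erythroid progenitors, was above threshold in 34.8 and 23.3%. CD41, the platelet integrin chain, had medians of 9 and 10 over all cells but of 12 and 26 in the CD34-high gate. The total of the 13 surface antibodies had a median of 1141 counts per cell in control and 1471 in the library labelled Mll4-deleted. This total was 1.29-fold higher where the RNA depth was lower. Gr1 made up 5.78 and 16.8% of the surface counts and CD11b 2.67 and 11.1%, so the total cannot tell antibody depth from cell makeup.

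Across autosomal genes with a mean of at least 20 CPM, 353 of 5778 were more than 2-fold higher in the library labelled Mll4-deleted (6.11%) and 84 were more than 2-fold lower (1.45%). The ratio is log2 of the CPM values with a pseudocount of 1 CPM added to each, and the fold marks 2 libraries, not a tested call. The median over all genes was 0.10. Scaling by trimmed means (TMM) moved this median to -0.11 and the counts to 230 higher and 298 lower, so the share of calls on the high side went from 80.8 to 43.6%. Most calls were therefore higher under one scaling and lower under the other. Genes that reached 20 CPM are called measured below. A list gene that is low in control could reach it only through the other library, so counts over measured list genes are descriptions. Where a pair of levels is given as 1 value against another, the control comes first.

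**Figure D2:**
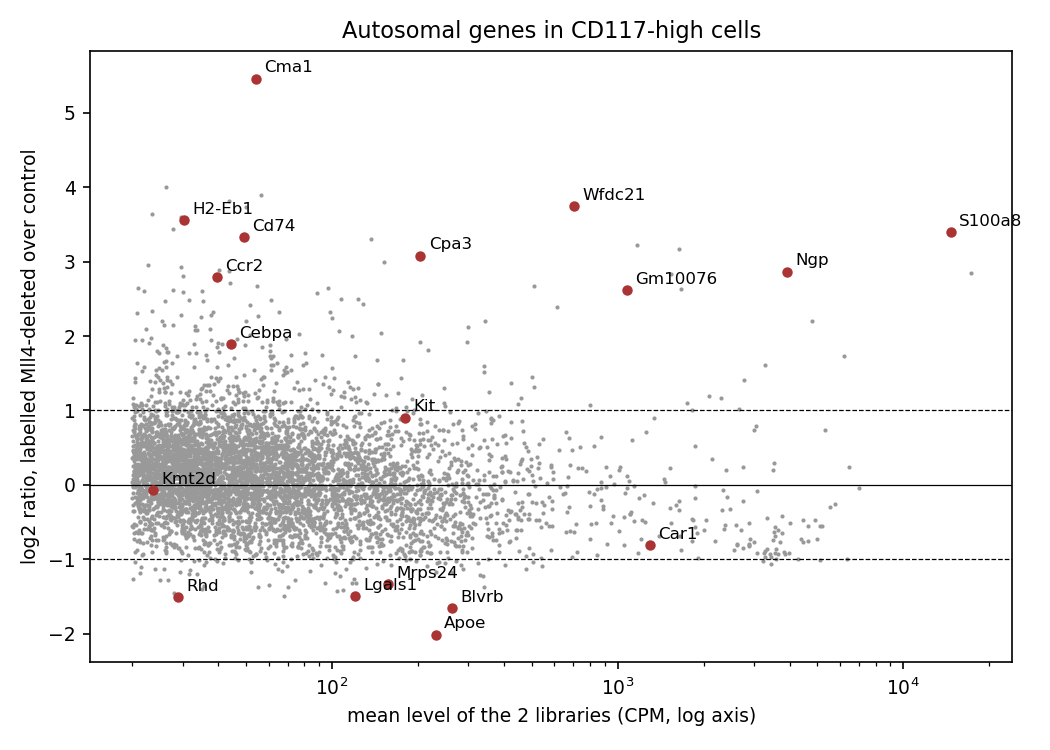
Log2 ratio of each autosomal gene (y axis, the library labelled Mll4-deleted over control) against its mean level in CPM (x axis, log scale) in CD117-high cells; dashed lines mark 2-fold and red points are named genes. Cma1 at 5.46 is the point farthest above the line and Apoe at -2.01 the farthest below.

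Within the gates the same rule gave 300 of 6068 genes higher (4.94%) and 80 lower (1.32%) in Sca-1-high cells, and 451 of 5579 higher (8.08%) and 309 lower (5.54%) in CD16/32-high cells. In CD34-high cells 245 of 5842 were higher (4.19%) and 49 lower (0.839%), and in triple-low cells 210 of 5506 were higher (3.81%) and 13 lower (0.236%). With TMM scaling the counts of higher and lower genes were 215 and 185, 370 and 433, 95 and 158, and 82 and 132, in the same order of gates. The high-side share of calls moved from 78.9 to 53.75%, from 59.3 to 46.1%, from 83.3 to 37.5% and from 94.2 to 38.3%. Of 4783 genes measured in all 4 gates, 50 were more than 2-fold higher and 3 more than 2-fold lower in every gate.

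The highest levels among the genes past 2-fold belonged to neutrophil granule and alarmin genes. S100a8, which encodes a calcium-binding alarmin subunit of neutrophils, was 2537 CPM in control and 26755 CPM in the library labelled Mll4-deleted, a log2 ratio of 3.40. Ngp, neutrophilic granule protein, was 943 CPM in control and 6889 CPM in the library labelled Mll4-deleted. Wfdc21, Lcn2, Chil3 and Ltf, further products of maturing neutrophils, were 96.3 against 1308 CPM, 377 against 2686 CPM, 329 against 2964 CPM and 225 against 2105 CPM. All 11 measured genes of the 16-gene secondary and tertiary granule list were more than 2-fold higher, with a median log2 ratio of 3.17 beside 0.10 for all genes, of which 6.11% were past this mark.

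Granule transcripts reached cells of every gate. In the CD34-high gate, where 0.461% of control cells and 4.09% of the cells of the library labelled Mll4-deleted were high for Gr1 or CD11b, S100a8 was 278 against 1156 CPM. Without Gr1- or CD11b-high cells it was 278 against 1132 CPM there. After each cell was thinned to 2000 UMIs, 47.2% of control cells and 90.4% of cells in the library labelled Mll4-deleted held an S100a8 UMI (99.1 and 99.7% without thinning), and the share in that library was 82.8 to 93.7% in every gate. Free RNA in droplets can put UMIs into cells that do not express a gene, so these shares were not read as expression in each cell. The proportions among granule genes were taken over all cells of the Sca-1-high and CD16/32-high gates, and in the CD34-high and triple-low gates over the cells that were not high for Gr1 or CD11b. Ngp per S100a8 UMI was 0.384 and 0.376 in the first pair of control gates and 0.262 and 0.270 in the second, and 0.265, 0.258, 0.209 and 0.2098 in the library labelled Mll4-deleted. Camp per S100a8 UMI was 0.551 to 0.684 in the control gates and 0.264 to 0.298 in those of the library labelled Mll4-deleted, and S100a9 per S100a8 was 1.63 to 1.68 and 1.03 to 1.13. How much of the granule signal came from free RNA, from mature cells or from the progenitors was not tested.

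Mast cell and basophil genes were also high. Cma1, mast cell chymase, at chr14:55941451-55944675 on the minus strand (GRCm38), was 1.44 CPM in control (exact 95% interval 1.24 to 1.67) and 107 CPM in the library labelled Mll4-deleted (102 to 111). Cpa3, mast cell carboxypeptidase A, at chr3:20215620-20242181 on the minus strand, was 42.4 CPM (41.2 to 43.5) and 366 CPM (358 to 374). These were log2 ratios of 5.46 and 3.08. The libraries labelled Mll3-deleted and Mll3/4-deleted held 0.500 and 0.618 CPM of Cma1 and 17.8 and 5.55 CPM of Cpa3. The CD117-high cells of the library labelled Mll3/4-deleted had another makeup. Their B cell list summed to 12038 CPM, beside 90.0 CPM in control, and their erythroid list to 213 beside 3842 CPM. Only 0.470% of them were CD16/32-high, beside 25.9% in control. Levels in that library are therefore not a like comparison.

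By hashtag, Cma1 was 0.574 and 2.56 CPM in the control subsets and 54.8 and 237 CPM in the others. Cpa3 was 44.0 and 42.5 CPM in the control subsets and 283 and 601 CPM in the others. For both genes the control subsets lay below both subsets of the library labelled Mll4-deleted, and the second-hashtag subset of that library was the higher of its pair. Of the 12 genes of the mast and basophil list 8 were measured, 6 were more than 2-fold higher (6.11% of all genes were) and none lower (1.45% of all genes), and their median was 2.27. Mcpt8, a basophil protease, was 18.3 against 91.9 CPM. Gzmb, granzyme B, was 7.03 against 48.4 CPM. Ms4a2 and Fcer1a, the beta and alpha chains of the high-affinity IgE receptor, were 9.42 against 49.6 CPM and 3.16 against 28.6 CPM, and Il1rl1, the receptor for the alarmin interleukin IL-33, was 14.4 against 39.6 CPM. Gata2, a transcription factor of stem cells and mast cells, was below the mark at 70.7 against 96.5 CPM.

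The promoters of 3 genes of this group, which were high together, are shown as the 250 bases before the RefSeq transcription start (GRCm38.p6, minus strand, 5′ to 3′), with the letters GATAA or, on the other strand, TTATC in capitals. This string is the core that GATA factors prefer. Cma1 covers chr14:55944676-55944925, Cpa3 chr3:20242182-20242431 and Ms4a2 chr19:11623720-11623969.
Cma1: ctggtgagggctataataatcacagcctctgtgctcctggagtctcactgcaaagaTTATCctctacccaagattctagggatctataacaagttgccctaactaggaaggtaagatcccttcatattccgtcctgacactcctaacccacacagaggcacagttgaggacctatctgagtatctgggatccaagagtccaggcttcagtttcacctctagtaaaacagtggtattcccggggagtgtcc
Cpa3: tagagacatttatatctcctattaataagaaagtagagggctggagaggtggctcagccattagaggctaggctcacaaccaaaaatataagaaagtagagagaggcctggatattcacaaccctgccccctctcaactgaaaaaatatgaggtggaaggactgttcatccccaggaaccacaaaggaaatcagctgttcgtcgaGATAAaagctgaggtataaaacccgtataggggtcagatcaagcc
Ms4a2: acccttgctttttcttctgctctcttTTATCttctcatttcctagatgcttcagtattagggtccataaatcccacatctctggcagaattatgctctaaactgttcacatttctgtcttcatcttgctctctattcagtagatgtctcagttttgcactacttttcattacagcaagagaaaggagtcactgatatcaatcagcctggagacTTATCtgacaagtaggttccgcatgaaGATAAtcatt
Cma1 and Cpa3 held 1 match each and Ms4a2 held 3. Over the 12 promoters of the list (10 genes matched), 7 held a match (58.3%), beside 10 of 20 in the erythroid list (50%), 4 of 15 in the secondary and tertiary granule list (26.7%) and 7418 of 32851 promoters in all (22.6%). The windows of Mcpt8 and Gzmb held none. A match describes the sequence and does not show a bound site.

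Mast cell genes were found in all gates but in a minority of cells. In Sca-1-high cells Cpa3 was 22.8 against 718 CPM, in CD16/32-high cells 84.7 against 402 CPM, in CD34-high cells 102 against 519 CPM and in triple-low cells 16.7 against 114 CPM. After thinning, a Cpa3 UMI was found in 7.36% of control cells and 18.7% of cells in the library labelled Mll4-deleted (21.7 and 28.3% without thinning), and in 14.3 and 36.2% of CD34-high cells, beside 5.06 and 12.5% of triple-low cells. Cma1 was rarer, with 0.216 and 2.68% (0.323 and 5.92% without thinning). Both were found together in 10 of 4631 control cells and in 57 of 2501 cells of the library labelled Mll4-deleted, of which 35 were CD16/32-high and 17 Sca-1-high. Only 4 of the 57 were high for Gr1 or CD11b. Within the Sca-1-high gate 841 of 891 Cma1 counts came from the CD150-low CD48-high cells, and the CD150-high CD48-low cells held 1. Without Gr1- or CD11b-high cells Cpa3 in the CD16/32-high gate was 123 against 1059 CPM.

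Genes of MHC class II, which presents peptides to helper T cells, were high in Sca-1-high cells. H2-Eb1, a class II beta chain, was 3.90 against 56.7 CPM over all cells and 18.3 against 380.2 CPM in the Sca-1-high gate. H2-Aa and H2-Ab1, further class II chains, were 27.4 against 364 CPM and 55.8 against 455 CPM there, Cd74, the invariant chain, was 35.5 against 601 CPM, and Ciita, the class II transactivator, was 1.84 against 19.8 CPM. Of the 9 list genes 5 were measured over all cells, 4 of them more than 2-fold higher beside 6.11% of all genes, with a median of 2.93. Members such as H2-Eb1 were measured only through their level in the library labelled Mll4-deleted: over all 9 genes, with no filter, the median was 1.42, and over the 7 with a mean of at least 5 CPM it was 1.45. Among cells with at least 250 CD117 counts it was 0.72 over 4 measured genes. The median was 3.34 over 6 measured genes in the Sca-1-high gate and -0.02 over 4 in the CD16/32-high gate. It was 0.35 over 3 in the CD34-high gate and 0.26 over 2 in the triple-low gate, the last moving to -0.01 with TMM. Cd74 in the CD16/32-high, CD34-high and triple-low gates was 12.4 against 36.7, 1.32 against 7.46 and 0.773 against 15.7 CPM. H2-Eb1 there was 4.59 against 17.7, 1.73 against 13.4 and 0.530 against 11.4 CPM. All but Cd74 in the CD16/32-high gate fell short of the 20 CPM mean. In that gate 1 of the 4 measured genes was more than 2-fold higher and 1 lower (8.08 and 5.54% of all genes were).

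The size of this difference depended on the hashtag. H2-Eb1 in Sca-1-high cells was 19.9 and 18.2 CPM in the control subsets and 137 and 553 CPM in those of the library labelled Mll4-deleted. Over all cells the list had a median of -0.028 with the first hashtag only, where 2 genes were measured, and of 3.36 with the second. A thinned H2-Eb1 UMI was found in 3.80% of control and 23.7% of the other Sca-1-high cells, beside 0.250 to 0.307% and 1.24 to 2.70% in the remaining gates. Cd74 and H2-Aa were found together in 19 control cells and 56 cells of the library labelled Mll4-deleted, 48 of them Sca-1-high and 25 high for Gr1 or CD11b. Without Gr1- or CD11b-high cells, H2-Eb1 in the gate was 14.8 against 262 CPM. B cells and macrophages also express these genes. No gene of the B cell or macrophage lists was measured over all cells, and none of the macrophage list in the Sca-1-high gate. Of the 12 B cell genes 5 were measured in that gate, with a median of -0.12. None was past 2-fold, beside 4.94% of all genes in the gate higher and 1.32% lower. In its CD150-high CD48-high cells 6 were measured, with a median of 0.92 and all 6 above 0, where the MHC class II median was 4.75. Of these 6 B cell genes, 2 were more than 2-fold higher. The share of all genes past 2-fold in this subset is not given here. The part of B cell transcripts in the MHC class II difference was not tested.

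Among genes of the granulocyte and monocyte progenitors, Mpo and Elane were higher in the CD34-high and triple-low gates. Mpo, myeloperoxidase, was 1207 against 2432 CPM over all cells. It was 1183 against 3259.6 CPM in the CD34-high gate, 108 against 445 CPM in the triple-low gate and 4063 against 4145 CPM in the CD16/32-high gate. Elane, neutrophil elastase, was 284 against 1295 CPM, 86.3 against 371 CPM and 5354 against 3129.9 CPM in these gates. Elane was thus higher in the first pair of gates and lower in the CD16/32-high gate. Without Gr1- or CD11b-high cells it was 268 against 1219 CPM, 78.9 against 238 CPM and 5099 against 4388 CPM, so the log2 ratio in the CD16/32-high gate went from -0.77 to -0.22. Mpo in that gate was then 4440.1 against 7299.6 CPM. The primary granule list had a median of 1.17 in triple-low cells, with 6 of 8 measured genes more than 2-fold higher beside 3.81% of all genes in that gate, and of -0.65 in CD16/32-high cells. Its median in CD34-high cells was 0.31, and 0.07 with TMM. There 4 of 11 measured genes were more than 2-fold higher and 1 lower, beside 4.19 and 0.839% of all genes. In Sca-1-high cells the median was 0.31, with 2 of 12 higher and 1 lower, beside 4.94 and 1.32%. The same exclusion gave medians of 0.88 in triple-low cells, with 2 of 8 genes more than 2-fold higher, and -0.06 in CD16/32-high cells. It gave 0.30 in CD34-high and -0.005 in Sca-1-high cells. Among all genes of the triple-low gate 205 were more than 2-fold higher after it, and 210 before.

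Cebpa, the transcription factor that starts granulocyte commitment, was 18.2 against 70.3 CPM over all cells. It was 12.4 against 34.9 CPM in Sca-1-high, 44.1 against 93.7 CPM in CD16/32-high, 38.1 against 143 CPM in CD34-high and 4.02 against 16.4 CPM in triple-low cells. Ccr2, the chemokine receptor that lets monocytes leave the marrow, was 9.22 against 69.7 CPM. Both genes were even between hashtags: Cebpa was 18.3 and 18.5 CPM in the control subsets and 74.5 and 78.6 CPM in the others, and Ccr2 was 8.78 and 9.72 and 74.9 and 71.2 CPM. In each case the groups did not overlap, without a share over all genes to set beside this. A thinned Ccr2 UMI was found in 1.77% of control cells and 11.1% of cells of the library labelled Mll4-deleted (9.47 and 20.02% without thinning), beside 0.0538 and 3.71% in the triple-low gate. Of the 20 measured fate transcription factors, 4 were more than 2-fold higher, Cebpa, Cebpd, Cebpe and Gfi1, beside 6.11% of all genes, and none lower, with a median of 0.40. Monocyte genes had a median of 1.75 over all cells, with 3 of 6 measured genes more than 2-fold higher beside 6.11% of all genes. By gate it was 1.55 in Sca-1-high, 0.27 in CD16/32-high, 1.21 in CD34-high and 1.63 in triple-low cells, the last over 2 genes. With Gr1- or CD11b-high cells left out these were 0.15, 0.65, 1.15 and 1.21.

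Kit itself was higher in every gate. It was 203 against 391 CPM in Sca-1-high, 114 against 199 CPM in CD16/32-high, 178 against 332 CPM in CD34-high and 102 against 179 CPM in triple-low cells. By hashtag it was 131 and 123 CPM in the control subsets and 239 and 273 CPM in the others, with no overlap. The CD117 antibody, which chose the cells, did not follow in all gates: its median was 268 and 295 in Sca-1-high, 286 and 239 in CD16/32-high, 298 and 345.5 in CD34-high and 206 and 223 in triple-low cells. The libraries labelled Mll3-deleted and Mll3/4-deleted held 122 and 205 CPM, the latter in cells of another makeup. Among 22 cytokine receptors 9 were measured, and 3 were more than 2-fold higher, Csf2ra, Csf2rb and Il1rl1, beside 6.11% of all genes, the first of these pairing with the second in the GM-CSF receptor. The list median was 0.89.

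Erythroid genes lay lower over all cells, and by how much depended on the gate. Car1, carbonic anhydrase of early red cell precursors, was 1653 against 945 CPM, and Klf1, the master erythroid transcription factor, was 99.1 against 61.5 CPM. By hashtag Klf1 was 98.9 and 99.1 CPM in the control subsets and 78.9 and 54.7 CPM in the others, with no overlap. In the triple-low gate, where Klf1 was highest, the levels were close: Klf1 was 161 against 171 CPM and Car1 2708 against 2676 CPM. A thinned Klf1 UMI was found in 17.3 and 17.2% of those cells. In CD34-high cells Car1 was 285 against 27.4 CPM and Klf1 17.6 against 4.04 CPM, the last value resting on 13 counts, and in CD16/32-high cells Car1 was 566 against 141 CPM.

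The erythroid list summarised this. Over all cells 12 of its 18 genes were measured and its median was -0.61, with 2 genes, Rhd and Blvrb, more than 2-fold lower beside 1.45% of all genes. The median was -1.69 in CD16/32-high cells, with 6 of 7 measured genes more than 2-fold lower beside 5.54% of all genes in the gate. It was -1.59 in CD34-high cells (3 of 5, beside 0.839%), -0.17 in Sca-1-high cells and 0.08 in triple-low cells. TMM scaling moved the triple-low median to -0.19. None of the 12 genes measured there was past 2-fold, beside 3.81% of all genes in the gate higher and 0.236% lower. When the gates of the library labelled Mll4-deleted were weighted to the control's shares, the median over all cells was -0.064. In sums over cells, fewer cells of a type and less RNA per cell cannot be told apart.

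Genes of the megakaryocyte lineage, which shares a progenitor with red cells, were higher in the triple-low gate. Itga2b, the gene of CD41, was 34.3 against 81.9 CPM there and 39.2 against 93.3 CPM in CD34-high cells, in which the CD41 antibody was also higher. In triple-low cells the CD41 antibody was close, with medians of 5 and 6 counts. Plek, a signalling adaptor of platelets, was 28.5 against 63.6 CPM, Gp5, a platelet glycoprotein, 29.3 against 60.1 CPM, and Rab27b, a granule transport protein, 14.8 against 32.4 CPM. These were the 4 of 7 measured genes past 2-fold in triple-low cells, beside 3.81% of all genes there. The list median in that gate was 1.01, and 0.74 with TMM. Pf4, platelet factor 4, was 240.4 against 288 CPM there and 42.6 against 155 CPM in CD34-high cells. Over all cells the thinned share with a Pf4 UMI was lower in the library labelled Mll4-deleted, a ratio of 0.795 to control. The list median was 0.84 in CD34-high and 0.18 in Sca-1-high cells.

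Stem cell genes were compared in the Sca-1-high CD150-high CD48-low cells, the surface type of blood stem cells. There were 224 such cells in control, 24.2% of the Sca-1-high gate (21.5 to 27.1), and 79 in the library labelled Mll4-deleted, 20.4% (16.5 to 24.8). Hlf, a transcription factor of stem cells, was 264 against 266 CPM, and Meis1, a homeobox factor, was 252 against 219.6 CPM. Mecom, also called Evi1, was 107 against 189 CPM, Mllt3 102 against 86.4 CPM and Angpt1, an angiopoietin, 432 against 458 CPM. The 17 measured genes of the stem cell identity list had a median of 0.01. Gr1- or CD11b-high cells made up 17.9% of the subset in control and 17.7% in the library labelled Mll4-deleted.

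Other genes in these cells stood farther apart. S100a8 was 1221 against 14201 CPM, and 350 against 1116 CPM without Gr1- or CD11b-high cells. All 11 measured genes of the secondary and tertiary granule list were more than 2-fold higher, with a median of 3.73. The share of all genes past 2-fold in these cells is not given here, so the genes named are descriptions. Mcm5 and Mcm6, subunits of the replicative helicase, were 86.5 against 236 CPM and 146 against 371 CPM, and Rrm2, a subunit of ribonucleotide reductase, was 39.4 against 109.8 CPM. The Mcm5 intervals were 76.5 to 97.5 and 192 to 287 CPM. The median of the S phase list was 0.64, while the G2/M list was at 0.05. H2-Ab1 was 58.6 against 294 CPM. Over the whole Sca-1-high gate Hlf was 212 against 132 CPM, and 218 against 190.0 CPM without Gr1- or CD11b-high cells. In its CD150-high CD48-high cells the stem cell identity list had a median of -0.78 over 10 measured genes. None was above 0 and 3 were more than 2-fold lower. Hlf there was 146 against 35.6 CPM, the last on 24 counts, and 152 against 69.4 CPM without Gr1- or CD11b-high cells. The list was at -0.26 in CD150-low CD48-high and 0.01 in CD150-low CD48-low cells. The CD150-low CD48-low cells made up 7.03% (5.46 to 8.87) of the Sca-1-high control cells and 16.0% (12.5 to 20.1) of those of the library labelled Mll4-deleted.

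Apoe, which encodes the lipid carrier apolipoprotein E, had the lowest ratio of all genes measured. It lies at chr7:19696109-19699188 on the minus strand (GRCm38) and was 371 CPM in control (367 to 374) and 90.9 CPM in the library labelled Mll4-deleted (86.9 to 95.2), a log2 ratio of -2.01 (-2.08 to -1.95). By hashtag it was 403 and 349 CPM in the control subsets and 132 and 48.7 CPM in the others. The control subsets lay above both others. It was 328 CPM in the library labelled Mll3-deleted and 3.13 CPM in the one labelled Mll3/4-deleted. The CD117-high cells of the last library were rich in B cell transcripts, so these levels are not a graded series.

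Apoe was lower in every gate: 378 against 62.7 CPM in Sca-1-high, 191 against 25.5 CPM in CD16/32-high, 359 against 41.0 CPM in CD34-high and 453 against 212 CPM in triple-low cells. After thinning, 37.98% of control cells and 10.8% of cells of the library labelled Mll4-deleted held an Apoe UMI, and 69.0 and 18.5% without thinning. In the CD150-high CD48-low cells it was 723 CPM (694 to 753) and 30.4 CPM (16.2 to 51.9, 13 counts). The exclusion of Gr1- or CD11b-high cells gave gate levels of 402 against 75.6 CPM, 234 against 42.5 CPM, 361 against 39.8 CPM and 452 against 211 CPM, in the same order.

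Lgals1, which encodes the secreted lectin galectin 1, and Mrps24, a protein of the small mitochondrial ribosome subunit, were the other genes more than 2-fold lower in all 4 gates. Lgals1 was 178 against 62.4 CPM over all cells and ranged from 92.3 against 37.5 CPM in triple-low to 352 against 83.8 CPM in CD16/32-high cells. Mrps24 was 225 and 229 CPM in the control subsets and 95.4 and 95.8 CPM in the others, with no overlap. Without Gr1- or CD11b-high cells Mrps24 was 168 against 99.2 CPM in Sca-1-high and 195 against 106 CPM in CD16/32-high cells, inside the 2-fold mark in both. Blvrb, biliverdin reductase B of heme breakdown, was 401 against 126 CPM and 135 against 55.2 CPM in Sca-1-high cells. Ifitm1, an interferon-induced membrane protein that is also high in stem cells, was 480.0 against 119.6 CPM in Sca-1-high cells and 87.0 against 67.8 CPM in triple-low cells.

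**Figure D3:**
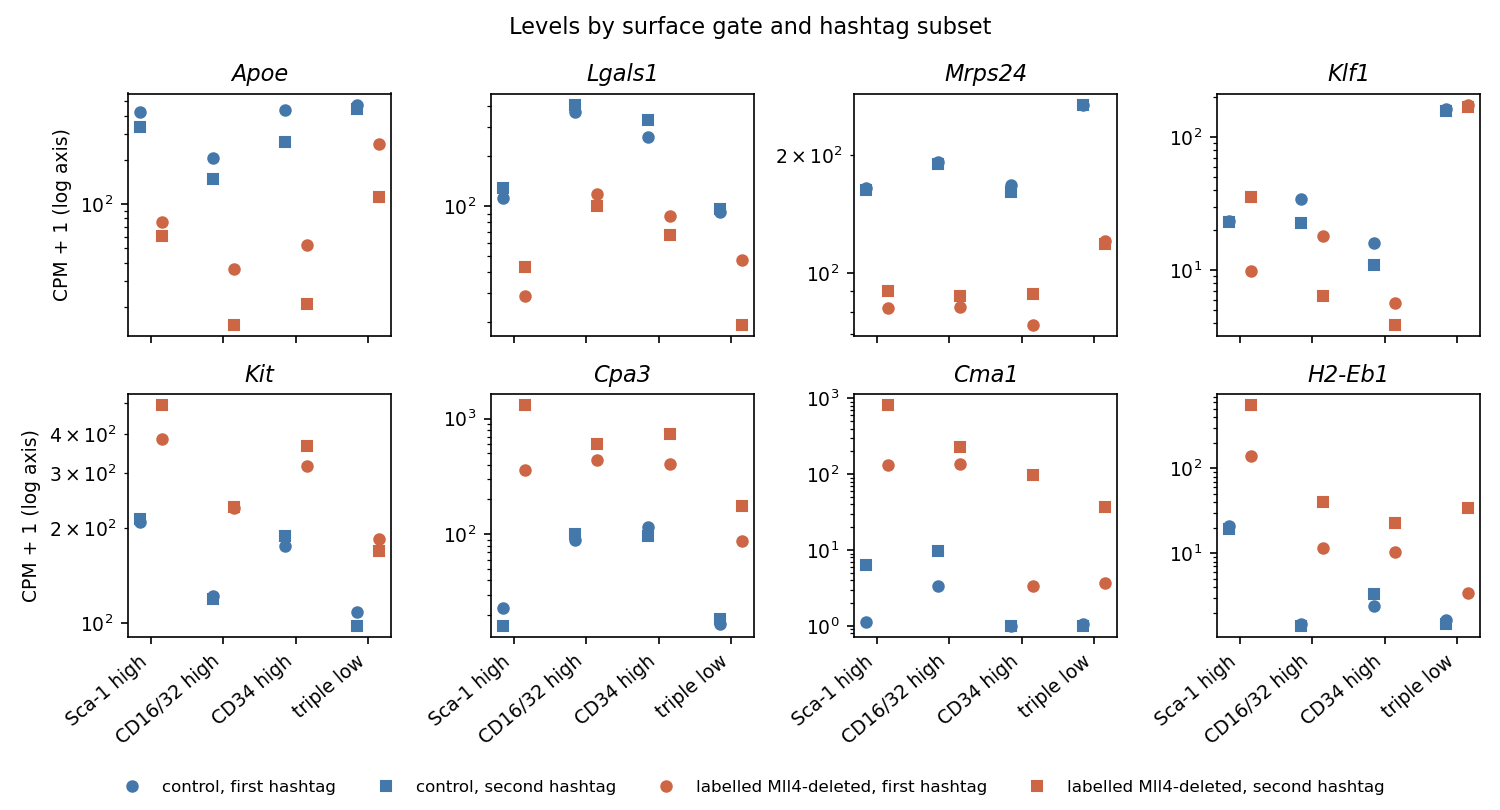
Levels of 8 genes (CPM + 1, log axes that differ between panels) in 4 surface gates; blue is control, red the library labelled Mll4-deleted, circles cells with only the first hashtag and squares cells with only the second. Apoe, Lgals1 and Mrps24 lie lower and Kit and Cpa3 higher in both red subsets in all 4 gates, while Klf1 in the triple-low gate lies close, at 161 and 171 CPM over the whole gate.

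Among the 12 autosomal genes with the highest ratios, the others included Fpr2, a formyl peptide receptor of phagocytes, at 2.18 against 50.2 CPM, Inhba, the beta A subunit of activin, at 4.88 against 82.0 CPM, and Itga1, an integrin alpha chain, at 2.63 against 44.2 CPM. Orm1, Plbd1, Gpr141 and Retnlg completed the list beside Cma1, Wfdc21, H2-Eb1, S100a8 and Cd74. The lowest 12 also held Rhd, Rgs10, Isg20, Znrd2, Ifitm1, Icam4, Mcrip2, Alad and Vamp5, with log2 ratios of -1.37 to -1.51. In both groups every gene had both hashtag subsets of the library labelled Mll4-deleted on one side of both control subsets. The choice of genes by their ratio fixes the direction, so this is a description.

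Gm10076 and Hist1h2ap, a predicted gene and a histone gene, were also among the genes higher in every gate, at 303 against 1858 CPM and 195 against 1031 CPM. They belong to families of near-identical copies whose reads cannot be split with certainty. Both were also high in the library labelled Mll3-deleted, at 895 and 643 CPM.

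**Figure D4:**
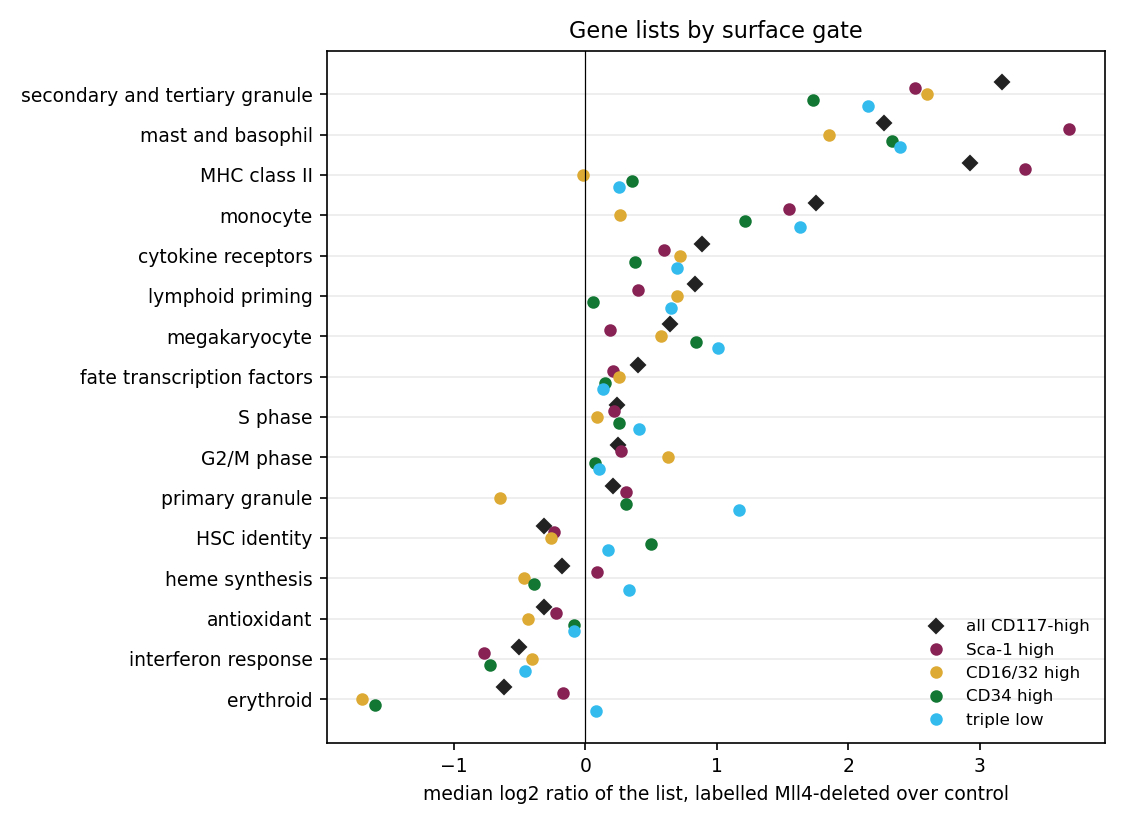
Median log2 ratio (the library labelled Mll4-deleted over control) of the measured genes of 16 lists, over all CD117-high cells (diamonds) and within 4 surface gates (circles). The secondary and tertiary granule and the mast and basophil lists are high in every gate. The MHC class II list is at 3.34 over 6 genes in the Sca-1-high gate and at most 0.35 over 2 to 4 genes in the other gates. The erythroid list runs from -1.69 in CD16/32-high to 0.08 in triple-low cells.

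Most lists of general programmes lay closer to the background. The S phase and G2/M lists had medians of 0.24 and 0.25 over all cells, with 1 of 20 genes in each more than 2-fold higher beside 6.11% of all genes, and the G2/M list reached 0.63 in CD16/32-high cells. TMM scaling turned the G2/M median to -0.17 in the CD34-high and in the triple-low gate. The antioxidant list was at -0.32, with Gsr higher and Prdx2 lower. Heme synthesis genes were at -0.17, with Alas1 higher and Alad lower. The interferon response list stood lower, at -0.51 over 4 measured genes and -0.72 with TMM. By gate it was -0.77 in Sca-1-high, -0.40 in CD16/32-high, -0.72 in CD34-high and -0.46 in triple-low cells. With TMM these were -0.91, -0.50, -1.10 and -0.73. Under the alternatives run, its median over all cells ranged from -0.74 to -0.008. The subunits of the MLL3 and MLL4 complexes were at 0.17 and at -0.04 with TMM, and other H3K4 methyltransferases at -0.03. None of either list was past 2-fold, beside 6.11% of all genes higher and 1.45% lower. Lymphoid priming genes stood higher, at 0.84, with 2 of 6 more than 2-fold higher beside the same 6.11%. Their median was 0.40 in Sca-1-high, 0.70 in CD16/32-high, 0.65 in triple-low (2 genes) and 0.06 in CD34-high cells, the last moving to -0.18 with TMM. Leaving out Gr1- or CD11b-high cells gave 0.037 in Sca-1-high and 0.40 in CD16/32-high cells.

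The ratios also moved with transcript length. Genes whose longest annotated transcript is under 1 kb had a median of -0.56 (352 genes), those of 1 to 2 kb -0.25 (1065 genes), those of 2 to 4 kb 0.20 (2309 genes) and longer ones 0.21 (2052 genes). The medians of both classes under 2 kb lay below those of longer genes in each of the 4 gates. For the library labelled Mll3-deleted over the same control, the medians ran from 0.02 to -0.06. Genes of the cytosolic ribosome, which are short, had a median of -0.61, with 63 of 76 below 0, from Rpl9 at -1.06 to Rps29 at 1.73. Genes of the mitochondrial ribosome, Mrps24 among them, had a median of -0.69 with 73 of 77 below 0, and respiratory chain genes -0.35. Beside these counts, the upper quartile of all genes under 1 kb was -0.10, so most of those genes also lay below 0. The median of all genes was 0.10. The part of this shift in single results was not tested. Apoe, at -2.01, Lgals1, at -1.49, and Mrps24, at -1.34, lay below the lower quartile of the shortest genes, -0.82. These genes were named for low ratios, which largely fixes this place, so it is only a description.

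**Figure D5:**
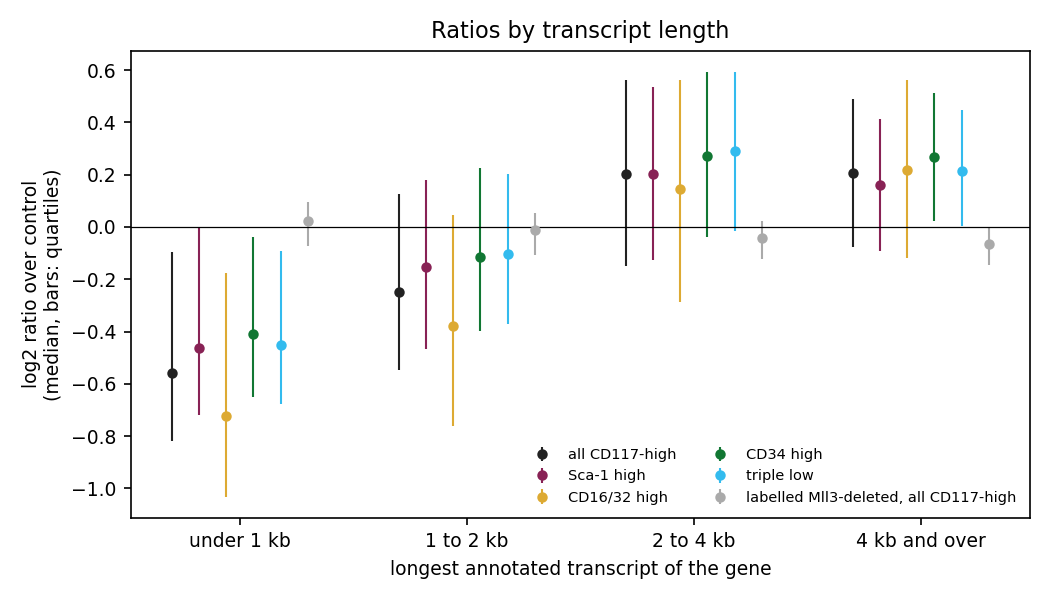
Median log2 ratio over control (points) with quartiles (bars) of autosomal genes in 4 classes of longest annotated transcript, for all CD117-high cells, for each surface gate and, in grey, for the library labelled Mll3-deleted. Over all cells the median goes from -0.56 under 1 kb to 0.21 at 4 kb and over, and the grey points stay between 0.02 and -0.06.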

How the data were processed

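Single Kit+ bone marrow cells were measured for RNA and barcoded antibodies (10x Genomics 3′ version 3.1), in 1 library per group. The deposited values are UMI counts, with no normalization, for 32285 genes and 15 antibody features (13 surface antibodies and 2 hashtags). Cell Ranger 6.1.2 and the mm10 build are named in the submitters' processing notes. The settings for calling cells are not given in the sources used here. Gene positions come from GENCODE M21 on GRCm38, which holds 32235 of the gene identifiers, and promoters from RefSeq on GRCm38.p6.

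Counts were summed over the CD117-high cells of a library or gate, scaled to CPM over all gene UMIs and compared as log2 ratios with a pseudocount of 1 CPM; a ratio past 2-fold was counted. Autosomal genes entered with a mean of at least 20 CPM. Intervals for levels are exact Poisson, those for shares Clopper-Pearson, and those for ratios exact conditional binomial on the scale with the pseudocount. With 1 library a group, no p-value was computed. Each gate threshold lay where the components of a 2-part Gaussian mixture, fitted to the control's log antibody counts, crossed. They were 31.7 counts for Sca-1, 42.4 for CD16/32, 19.0 for CD34, 13.7 for CD150, 267 for CD48, 76.7 for Gr1 and 37.7 for CD11b, and CD201, CD127 and CD135 had no usable threshold. Shares of cells with a UMI used cells thinned to 2000 UMIs, which left out 7 control cells and 82 of the other library. Doublets were kept and left out only in alternatives, by both hashtags or by the highest Scrublet scores (8.01% of filtered control cells and 5.29% of the other library). The automatic Scrublet threshold called 2.91 and 1.68%. Counts were not corrected for free RNA.

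Named genes were the 12 highest and 12 lowest ratios, the 10 each way with the largest smallest ratio over gates, members of 24 fixed lists (329 of 330 genes found), marker genes and antibody genes; 1 gene is not reported here. Members, lists and rules were chosen with earlier results of these data known. The steps were tested on simulated data. Python 3.11.15, numpy 2.4.6, scipy 1.17.1, scikit-learn 1.9.0, scanpy 1.11.5, R 4.3.3 and edgeR 4.0.16 (TMM factors only) were used.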

Additional observations from a re-analysis of the deposited data

Results flagged for a closer look

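Some gene lists had opposite directions in different surface gates, with 1 library a group, so the difference was not tested. The stem cell identity list was at a median log2 ratio of 0.50 in the CD34-high gate and -0.26 in the CD16/32-high gate. The primary granule list, with Mpo and Elane, was at 1.17 in the triple-low gate and -0.65 in the CD16/32-high gate. The heme synthesis list was at 0.33 in the triple-low gate and -0.47 in the CD16/32-high gate. The CD16/32-high gate also held more Gr1- or CD11b-high cells in the library labelled Mll4-deleted, 63.3% against 33.8% in control. Without these cells the stem cell identity list was at 0.52 in the CD34-high gate and 0.13 in the CD16/32-high gate, and the heme synthesis list at 0.33 in the triple-low gate and 0.020 in the CD16/32-high gate, so neither pair had opposite signs. The primary granule list was then at 0.88 in the triple-low gate and -0.06 in the CD16/32-high gate.

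Outside the autosomal comparison, the male-specific genes Ddx3y, Uty, Kdm5d and Eif2s3y summed to 146 CPM in the library labelled Mll4-deleted, above the 0.0161 CPM of the control.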

How the results depend on the processing

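The result of each comparison is 2 libraries, so depth, sex, cell makeup and the label cannot be told apart, and low levels in the shallower library rest on few counts: 3 counts there are 0.933 CPM in the CD34-high gate and 7.01 CPM in the Sca-1-high CD150-high CD48-low cells. The mast and basophil and the granule lists stayed above 0 and the erythroid list below 0 under every alternative run, with ranges of 1.99 to 2.86, 1.87 to 3.69 and -0.86 to -0.06. The MHC class II list ranged from -0.03 to 3.40 and the stem cell identity list from -0.52 to 0.13. The 38 genes named for their extreme ratios also kept their direction, which that choice largely fixes, so it is no sign of stability. No paired analysis was possible because each group had 1 library. Reported list medians were granule 3.17, MHC class II 2.93, mast 2.27, stem cell -0.31 and erythroid -0.61, gene counts 353 higher and 84 lower, log2 ratios of gate shares Sca-1-high -0.41, CD16/32-high 0.68, CD34-high 0.50 and triple-low -0.76, and ratios of thinned shares with a UMI Cpa3 2.54, Klf1 0.567, Elane 1.39 and Pf4 0.795. Alternatives that moved them, with causes not tested, are as follows. With TMM scaling, list medians were stem cell -0.52, granule 2.96, MHC class II 2.73, erythroid -0.82 and mast 2.07, and gene counts were 230 higher, 298 lower, 185 lower in Sca-1-high cells, 95 higher in CD34-high cells, 158 lower in CD34-high cells, 82 higher in triple-low cells, 132 lower in triple-low cells. With a pseudocount of 5 CPM, list medians were granule 2.86, MHC class II 2.38 and mast 1.99. With a minimum of 5 CPM, list medians were stem cell -0.13 and MHC class II 1.45, and gene counts were 628 higher, 134 lower. With no filter on low genes, list medians were stem cell -0.10 and MHC class II 1.42, and gene counts were 846 higher, 180 lower. Without cells positive for both hashtags, list medians were stem cell -0.19, granule 2.96, MHC class II 3.18, erythroid -0.46 and mast 2.47, and gene counts were 50 lower. Without the highest Scrublet scores, list medians were stem cell -0.23, granule 3.55, MHC class II 3.23 and mast 2.43. With at least 250 CD117 counts, list medians were stem cell 0.13, granule 2.34, MHC class II 0.72 and mast 2.58, gene counts were 44 lower, and gate shares were CD16/32-high 0.17 and triple-low -0.50. With a CD117 threshold matched by share (84 counts, 3380 cells), list medians were stem cell -0.51, granule 3.69, MHC class II 3.40, erythroid -0.76 and mast 2.14, gene counts were 165 lower, and gate shares were CD16/32-high 0.89 and CD34-high 0.18. With at most 5% mitochondrial UMIs, list medians were granule 3.20. With the first hashtag only, list medians were stem cell -0.22, granule 2.18, MHC class II -0.028 and erythroid -0.29, gene counts were 35 lower, and gate shares were Sca-1-high -0.97, CD16/32-high 0.52 and triple-low -0.36. With the second hashtag only, list medians were stem cell -0.18, granule 3.64, MHC class II 3.36, erythroid -0.86 and mast 2.86, and gate shares were Sca-1-high 0.13 and triple-low -1.16. Without Gr1- or CD11b-high cells (chosen after seeing the data), list medians were stem cell 0.10, granule 1.87, MHC class II 2.25, erythroid -0.25 and mast 2.70, gene counts were 232 higher, 28 lower, 41 lower in Sca-1-high cells, 64 lower in CD16/32-high cells, gate shares were CD16/32-high 0.20, CD34-high 0.83 and triple-low -0.45, and shares with a UMI were Cpa3 3.03, Klf1 0.717 and Pf4 1.002. With cells thinned to 2000 UMIs, list medians were stem cell -0.17, granule 2.83, MHC class II 2.32, erythroid -0.48 and mast 2.42. With the mean of cell shares, list medians were stem cell -0.0254, granule 2.78, MHC class II 2.31 and mast 2.86. With gates weighted to control, list medians were stem cell -0.15, granule 2.42 and erythroid -0.0636, and gene counts were 33 lower. With thresholds from each library, gate shares were Sca-1-high -0.75. With thresholds moved by the antibody total, gate shares were Sca-1-high -0.71 and triple-low -0.52. Thinned to 1000 UMIs, shares with a UMI were Cpa3 3.25. Without thinning, shares with a UMI were Cpa3 1.30, Klf1 0.403, Elane 0.844 and Pf4 0.462.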
